A study of Homo sapiens with 8 samples.

Results

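The mature miRNAs of the miR-193 and miR-365 hairpins were examined in DLD1 and HT29 cells grown in 2D and as multicellular spheroids (MCS). They were taken by name from the deposited count matrix as hsa-miR-193a-5p, hsa-miR-193a-3p, hsa-miR-193b-3p, hsa-miR-193b-5p, hsa-miR-365a-3p and hsa-miR-365b-3p, which are 6 of its 1780 mature miRNAs. All 6 were found. The rule used their names and no threshold on a value, but the list was drawn up with earlier results of these data known. DLD1 and HT29 are established human colorectal adenocarcinoma lines, and small RNA of each was sequenced after 6 days in 2D or MCS, with 2 biological replicates per culture and 8 libraries in all. DLD1 cells grew in RPMI and HT29 cells in DMEM, both with 10% serum. In 2D, flasks received 35000 DLD1 or 100000 HT29 cells, whereas MCS formed over 1% agarose in round-bottom wells, from 7000 DLD1 or 3500 HT29 cells each. The DLD1 libraries were made with kit version 3 and the HT29 libraries with kit version 2, so that kit, medium and cell line cannot be told apart, and MCS was compared with 2D within each line. Each line stands for itself as a model, and neither gives a spread over tumors.

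A miRNA hairpin is cut into a duplex whose arms come from its 5p and 3p sides. One arm usually stays in Argonaute and pairs through its seed (bases 2 to 8) with messenger RNAs, which are then repressed, while the other arm is mostly degraded. The miR-193 and miR-365 families are known as tumor-suppressive in several carcinomas, and the miR-193b and miR-365 pair is known for a role in brown fat differentiation.

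In DLD1 cells, 1 of the 4 members tested was called, where 41.6% of all tested miRNAs were. It was miR-193a-5p, which rose 2.55-fold in MCS, with both MCS libraries far above both 2D libraries. The 3p arms of miR-193b and of both miR-365 hairpins did not pass the test in either line. MiR-193a was counted almost entirely as its 5p arm in DLD1 cells, miR-193b as its 3p arm in both lines, and each arm of miR-193a had 30 counts or fewer in every HT29 library.

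The mature sequences are shown because they set which entries can be told apart in the counts. They were taken from RefSeq (table of build GRCh38.p14), are written 5′ to 3′, and carry the seed in capitals.
miR-193a-5p: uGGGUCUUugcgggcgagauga
miR-193b-5p: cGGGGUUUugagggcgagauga
miR-193a-3p: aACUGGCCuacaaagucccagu
miR-193b-3p: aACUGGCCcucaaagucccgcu
miR-365a-3p: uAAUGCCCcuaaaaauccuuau
miR-365b-3p: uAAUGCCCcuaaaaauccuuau
miR-365a-5p: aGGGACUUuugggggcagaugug
miR-365b-5p: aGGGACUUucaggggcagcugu

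The 3p arms of miR-193a and miR-193b share their seed and 18 of 22 bases (81.8%), with U9C, A10U, A20G and G21C from miR-193a-3p to miR-193b-3p, counted from 1 at the 5′ end. The 5p arms of these hairpins also share 18 of 22 bases, but their seeds differ, through U5G and C6U, beside U1C and C11A outside the seed. The 3p arms of miR-365a and miR-365b are the same sequence over all 22 bases. Their 5p arms, which are no members of the list, share the seed and 19 of the 22 bases compared (86.4%), differ by U10C, G11A and A19C from miR-365a-5p to miR-365b-5p, and differ in length by 1 base. A search of 2370 human mature miRNAs found no miRNA outside the list with the seed of a member.

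The hairpins lie in 2 clusters of the human genome GRCh37, both on the plus strand, and their sequences are given because they show both arms in place, in capitals.
MIR193B at chr16:14397824-14397906: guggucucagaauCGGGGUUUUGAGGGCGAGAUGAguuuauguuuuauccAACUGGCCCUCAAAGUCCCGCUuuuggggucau
MIR365A at chr16:14403142-14403228: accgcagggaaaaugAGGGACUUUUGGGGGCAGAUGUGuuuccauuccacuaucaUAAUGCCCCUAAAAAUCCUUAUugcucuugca
MIR193A at chr17:29887015-29887102: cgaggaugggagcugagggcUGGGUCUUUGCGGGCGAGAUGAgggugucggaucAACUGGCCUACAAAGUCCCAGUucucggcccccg
MIR365B at chr17:29902430-29902540: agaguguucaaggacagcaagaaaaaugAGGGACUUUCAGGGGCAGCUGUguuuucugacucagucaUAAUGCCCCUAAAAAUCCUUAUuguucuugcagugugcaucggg

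On chromosome 16, 5235 bases separate MIR193B from MIR365A, and both lie in an intron of the long non-coding RNA gene MIR193BHG. On chromosome 17, 15327 bases separate MIR193A, which lies in no annotated host gene, from MIR365B. MIR365B lies in the long non-coding RNA gene MIR365BHG, where its last 11 bases overlap an exon (29902530 to 29902678). Another hairpin of that locus, MIR4725, lies in an intron of MIR365BHG (29902288 to 29902377), with 52 bases between it and MIR365B. The annotation used was GENCODE release 44, lifted to GRCh37.

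The libraries held 10495634 to 26211524 miRNA counts. They were scaled by the upper quartile within each line, with factors from 0.746 to 1.17 in DLD1 and from 0.522 to 1.66 in HT29 cells, where replicate 1 of each culture had the smaller factor. Levels are given as normalized CPM, meaning counts-per-million of the library total times its factor. Levels of different miRNAs are set side by side within a line as counted. The miR-193 and miR-365 arms are 22 or 23 bases long, but whether different sequences were captured equally was not tested, also for the shares of arms. A miRNA was tested with a mean of at least 10 CPM in its line, and was called with an adjusted p-value under 0.05 and a fold change of at least 1.5. Marker miRNAs of cell types are given as CPM of the library total, without the factors. All 8 epithelial and intestinal markers listed were counted in every group, and summed to 94529 to 109583 CPM in 2D and 173033 to 176189 CPM in MCS of DLD1 cells, higher in MCS as was miR-193a-5p, and to 70058 to 190082 and 145526 to 265459 CPM in HT29 cells. Alone of the 8, miR-215-5p was lower in DLD1 MCS (78.6 and 66.9 CPM) than in DLD1 2D (87.6 and 94.5 CPM). The 2 stromal markers summed to 0.191 to 8.41 CPM over the libraries and the endothelial marker miR-126-3p lay between 2.19 and 94.0. The 4 blood markers summed to 13.2 to 32.1 CPM in 2D and 42.3 to 55.3 in MCS of DLD1 cells, with miR-223-3p and miR-150-5p at 0, and to 12.1 to 54.5 and 59.3 to 240.5 in HT29 cells, with miR-223-3p at 0. The 4 markers of other organs summed to 1.33 to 2.34 CPM in 2D and 9.87 to 11.7 in MCS of DLD1 cells, and to 23.4 to 50.3 and 30.6 to 91.2 in HT29 cells, most of it miR-1-3p. The part of the markers in the results below was not tested.

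MiR-193a-5p had 42.4 and 39.5 normalized CPM in replicates 1 and 2 of DLD1 2D (744 and 1175 counts). In DLD1 MCS it had 105 and 103 normalized CPM (1966 and 1573 counts). The libraries of each culture thus lay close together and the cultures did not overlap, as at 70.8% of the 346 miRNAs tested in DLD1 cells. The means were 41.0 ± 2.06 in 2D and 104 ± 1.41 normalized CPM in MCS (SD, n = 2). The log2 fold change was 1.35 (SE 0.29, 95% interval 0.79 to 1.91), and edgeR's quasi-likelihood test gave an adjusted p (Benjamini-Hochberg) of 1.61e-05. This test draws on a spread shared across the tested miRNAs and not on the libraries of miR-193a-5p alone. MiR-193a-5p was 1 of 4 members tested, and of all tested miRNAs 41.6% were called, 30.1% as higher in MCS. With an unadjusted p under 0.05 in place of the adjusted one, 46.2% of all tested miRNAs and again 1 of the 4 members passed. Its log2 fold change was the 39th highest among the 346, and its adjusted p the 58th smallest.

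Without any single DLD1 library, the log2 fold change of miR-193a-5p lay between 1.16 and 1.30 and it remained called. On library totals alone, which moved the median log2 fold change of all tested DLD1 miRNAs by -0.37, its levels were 47.0 and 46.1 CPM in 2D against 109 and 76.9 CPM in MCS, and the log2 fold change was 0.99, still called. With all 8 libraries in 1 fit, the spread was shared with HT29, where it was wider, and the scaling factors were taken over both lines. The log2 fold change of miR-193a-5p was then 1.33 and did not pass edgeR's quasi-likelihood test (adjusted p = 0.137). What changed the outcome was not tested. In bulk RNA, a change in the number of cells with a miRNA and a change in its level per cell cannot be told apart.

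**Figure D1:**
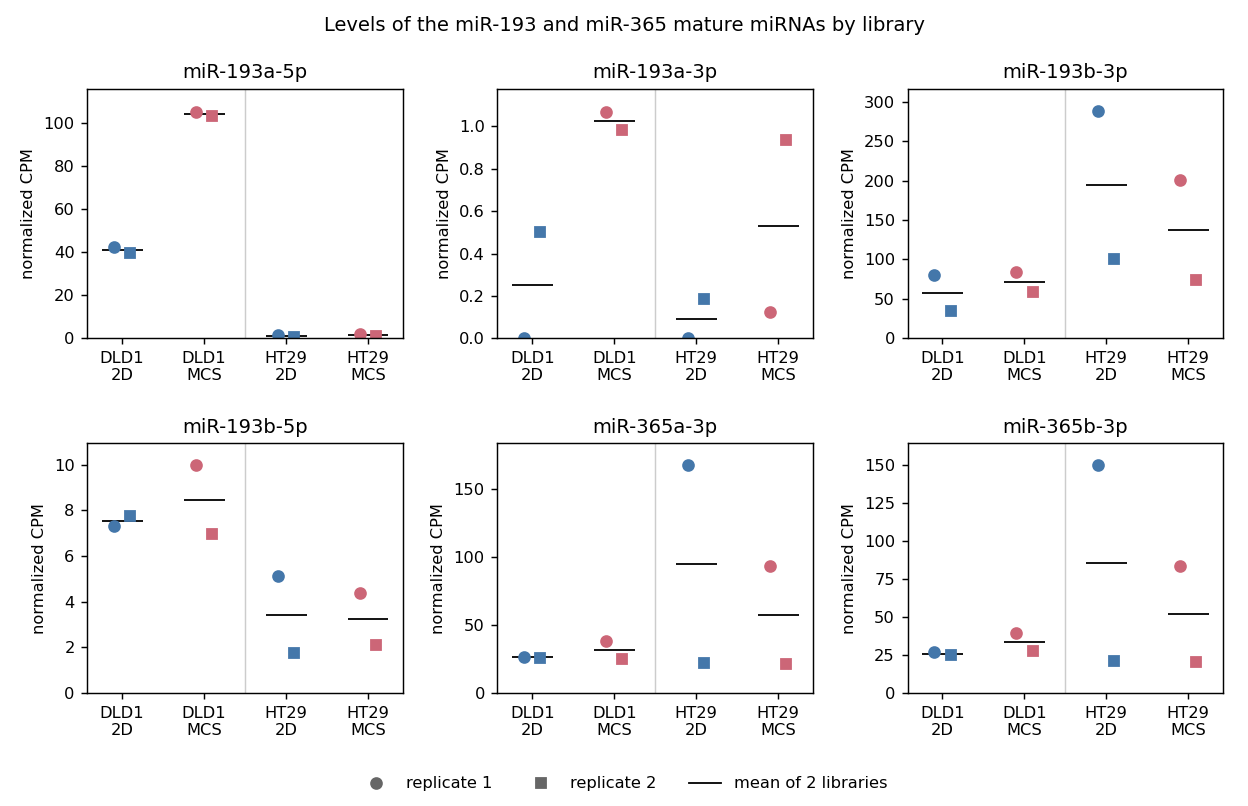
Levels of the 6 mature miRNAs (y axes, normalized CPM, each panel on its own scale from 0) in the 8 libraries, as points by cell line and culture, with blue for 2D, red for MCS, circles for replicate 1, squares for replicate 2 and black lines for the mean of 2 libraries. MiR-193a-5p sits at 42.4 and 39.5 in DLD1 2D and at 105 and 103 in DLD1 MCS, and for the 3p arms of miR-193b and miR-365 the replicates of HT29 lie farther apart than the cultures.

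In HT29 cells, miR-193a-5p had 1.64 and 0.575 normalized CPM in 2D (9 and 25 counts) and 2.01 and 1.12 in MCS (16 and 30 counts). The cultures overlapped, and with 0.906 and 1.62 CPM on average in 2D and MCS it stayed under the level for a test. On library totals alone, HT29 cells had 0.857 to 1.75 CPM of miR-193a-5p against 46.1 to 109 CPM in DLD1 cells, a difference between lines that also differ in kit. Without a filter on low values, the log2 fold change in HT29 was 0.57 (SE 0.77, adjusted p = 0.905 in edgeR's quasi-likelihood test). The difference of the responses (HT29 minus DLD1) was then -0.63 on the log2 scale (SE 0.78, adjusted p = 1.00 in the same test), so that the rise was not shown to differ between the lines.

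The opposite arm, miR-193a-3p, which carries the seed it shares with miR-193b-3p, was counted 0 and 15 times in DLD1 2D and 20 and 15 times in DLD1 MCS. These counts are 0 and 0.504 normalized CPM in 2D against 1.07 and 0.983 in MCS, where a count of 0 in replicate 1 of 2D allows up to 0.190 CPM. In HT29 cells it was counted 0 and 8 times in 2D and 1 and 25 times in MCS, with 0 allowing up to 0.286 CPM in replicate 1 of 2D. The cultures of DLD1 did not overlap, as at 70.8% of the miRNAs tested there, and those of HT29 did. In neither line did miR-193a-3p reach the level for a test. Without a filter, its log2 fold change was 1.68 in DLD1 (SE 1.08, adjusted p = 0.452) and 2.05 in HT29 (SE 1.14, adjusted p = 0.905) in edgeR's quasi-likelihood test, neither of which passed.

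MiR-193b-3p, the arm with most of the miR-193b counts, had 80.2 and 34.4 normalized CPM in DLD1 2D (1406 and 1022 counts) and 83.6 and 58.4 in DLD1 MCS (1564 and 892 counts). The cultures overlapped, and replicate 1 was the higher library in each. The means, 57.3 ± 32.4 and 71.0 ± 17.8 normalized CPM (SD, n = 2), differed by less than the replicates did. The log2 fold change was 0.36 (SE 0.28, 95% interval -0.20 to 0.92, adjusted p = 0.309 in edgeR's quasi-likelihood test). Each single library bore on this value, which was 0.93 without replicate 1 of 2D, where it was called (adjusted p = 0.0167 in the same test), and -0.28 without replicate 2 of 2D.

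In HT29 cells, miR-193b-3p had 289 and 100 normalized CPM in 2D (1582 and 4354 counts) and 201 and 73.9 in MCS (1600 and 1975 counts). Replicate 1 again lay above replicate 2 in both cultures, by more than the cultures differed. Per library total the same counts were 151 and 166 CPM in 2D and 149 and 115 CPM in MCS, where the replicates of 2D lay closer together and both MCS libraries lay below them. The log2 fold change was -0.50 (SE 0.76, 95% interval -2.48 to 1.48, adjusted p = 0.978 in edgeR's quasi-likelihood test), and -0.26 on library totals.

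MiR-193b-5p, the opposite arm, had 7.30 and 7.77 normalized CPM in DLD1 2D and 9.99 and 6.95 in DLD1 MCS (106 to 231 counts). In HT29 cells it had 5.11 and 1.75 normalized CPM in 2D and 4.39 and 2.10 in MCS (28 to 76 counts). The cultures overlapped in both lines, and its means of 8.17 CPM in DLD1 and 3.02 CPM in HT29 stayed under the level for a test. Without a filter, its log2 fold change was 0.18 in DLD1 (SE 0.37) and -0.06 in HT29 (SE 0.71), neither passing edgeR's quasi-likelihood test.

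The 3p arm of miR-365 was deposited as 2 entries although miR-365a-3p and miR-365b-3p are the same sequence. MiR-365a-3p held 47.8% to 52.8% of the counts of both entries in each of the 8 libraries, so the reads were split nearly evenly between them. How reads that match several miRNAs were counted is not given in the sources used here, and the entries carry no information on which hairpin the arm came from. Their values are therefore given in turn and summed, and they are not 2 independent observations.

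MiR-365a-3p had 26.7 and 25.9 normalized CPM in DLD1 2D (468 and 769 counts) and 38.3 and 25.2 in DLD1 MCS (717 and 385 counts). MiR-365b-3p had 27.0 and 24.8 normalized CPM in 2D (474 and 739 counts) and 39.4 and 27.6 in MCS (737 and 421 counts). The DLD1 cultures overlapped for miR-365a-3p, while the lower MCS library of miR-365b-3p lay above the higher 2D library by 27.6 to 27.0, as both MCS libraries did for 45.4% of the miRNAs tested. The log2 fold changes were 0.29 for miR-365a-3p (SE 0.31, 95% interval -0.31 to 0.90, adjusted p = 0.458) and 0.39 for miR-365b-3p (SE 0.31, 95% interval -0.22 to 0.99, adjusted p = 0.311) in edgeR's quasi-likelihood test. Summed, the 3p arm had 53.7 and 50.7 normalized CPM in 2D and 77.7 and 52.8 in MCS, with a log2 fold change of 0.32 (adjusted p = 0.370 in the same test). Only replicate 1 of MCS stood apart, and without it the log2 fold changes of both entries were below 0, at -0.23 and -0.078.

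In HT29 cells, miR-365a-3p had 168 and 21.9 normalized CPM in 2D (920 and 954 counts) and 93.6 and 21.3 in MCS (746 and 570 counts). The entry for miR-365b-3p gave 150 and 21.4 normalized CPM in 2D and 84.0 and 20.4 in MCS. Both entries were high in replicate 1 and low in replicate 2 of each culture, and the 2 libraries of replicate 2 lay close together. The log2 fold change of miR-365a-3p was -0.72 (SE 1.16, 95% interval -3.72 to 2.28) and that of miR-365b-3p -0.72 (SE 1.12, 95% interval -3.62 to 2.19), both with adjusted p = 0.978 by edgeR's quasi-likelihood test. Summed, the 3p arm had 318 and 43.4 normalized CPM in 2D and 178 and 41.7 in MCS, with a log2 fold change of -0.71 (adjusted p = 0.981 in the same test). Per library total, miR-365a-3p had 87.7 and 36.4 CPM in 2D and 69.4 and 33.2 CPM in MCS, so that the replicates also differed on that scale. Without replicate 1 of 2D, the log2 fold changes turned to 1.38 for miR-365a-3p and 1.27 for miR-365b-3p, neither called.

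**Figure D2:**
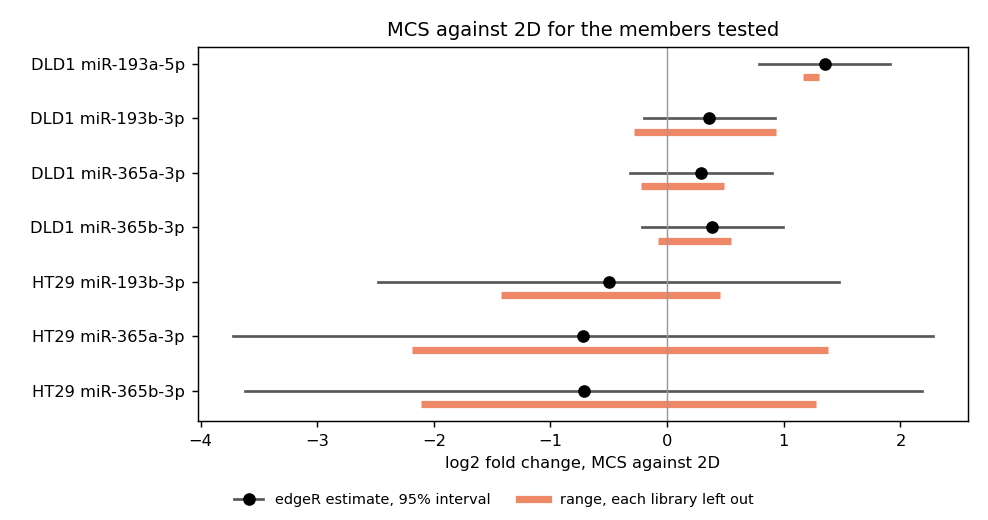
Log2 fold change of MCS against 2D (x axis) for the members tested in DLD1 and HT29 cells (y axis), with black points for the edgeR estimate, grey lines for its 95% interval and orange bars for the range of estimates when each library is left out in turn. MiR-193a-5p in DLD1 is the only member whose interval (0.79 to 1.91) and range (1.16 to 1.30) both lie above 0.

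Of the 6 members, 4 were tested in DLD1 and 1 was called, beside 41.6% of all miRNAs tested there, and 3 were tested in HT29 and 0 were called. The median log2 fold change of the members tested was 0.37 in DLD1, beside 0.23 over all 346 miRNAs. In HT29 it was -0.72, beside 0.03 over all 301 miRNAs, and was set by the miR-365 3p entries (both -0.72), with miR-193b-3p at -0.50. These entries are the same sequence, yet each counts as a member in these totals and medians. In HT29 cells, edgeR's quasi-likelihood test called 0% of the 301 miRNAs, 13 (4.32%) had an unadjusted p under 0.05 with the fold change, DESeq2 called 11 and edgeR's exact test 5, and none of these was a member. The MCS and 2D libraries overlapped for all 3 members tested in HT29, while they did not overlap for 28.6% of the miRNAs tested there.

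**Figure D3:**
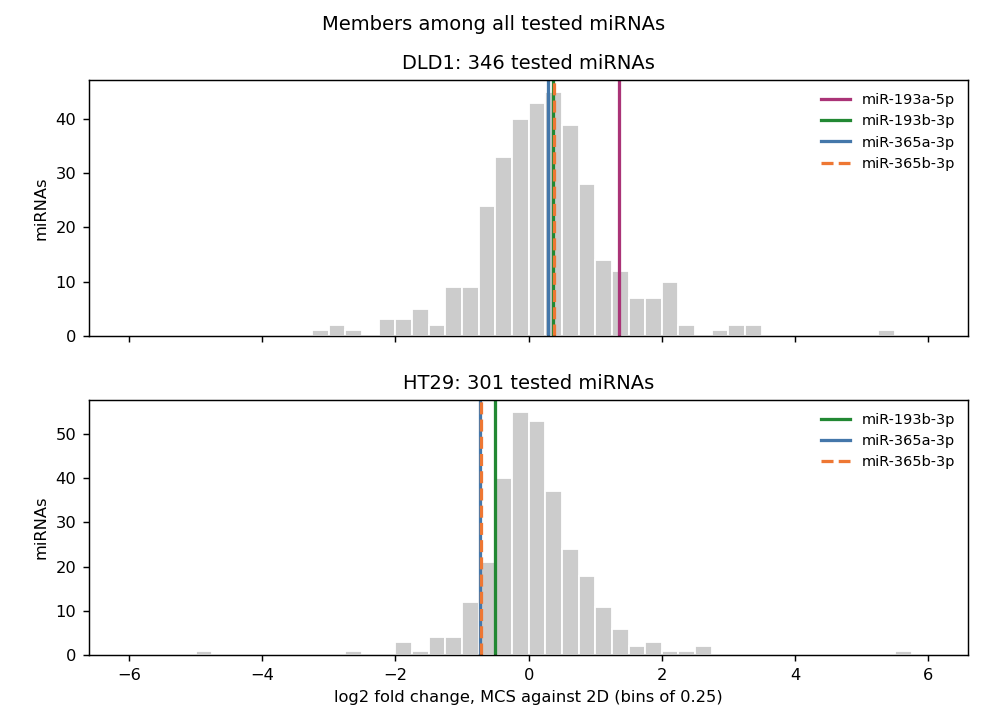
Number of miRNAs (y axis) by log2 fold change of MCS against 2D in bins of 0.25 (x axis), with grey bars for all tested miRNAs, 346 in DLD1 above and 301 in HT29 below, and colored lines for the members tested. MiR-193a-5p stands at 1.35 in the upper tail of DLD1, the other DLD1 members lie near the middle at 0.29 to 0.39, and the HT29 members lie at -0.72 to -0.50.

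The difference of the responses of the lines was tested as an interaction over the 250 miRNAs tested in both, of which edgeR's quasi-likelihood test called 0%, while 25 (10%) had an unadjusted p under 0.05 and DESeq2 called 20, no member among them. The HT29 minus DLD1 difference was -0.85 (SE 1.00, adjusted p = 0.837) for miR-193b-3p on the log2 scale. For miR-365a-3p it was -1.02 (SE 1.38, adjusted p = 0.869), and for miR-365b-3p -1.11 (SE 1.33, adjusted p = 0.837). All 3 were negative, though the miR-365 entries are the same sequence and not independent. Without replicate 1 of HT29 2D the 3 differences were 0.13, 1.12 and 0.91, so that a difference between DLD1 and HT29 was not resolved for them.

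Within a line, the order of the levels is given for the entries as counted, where each miR-365 3p entry holds only part of its arm's reads. In DLD1 2D the mean level fell from miR-193b-3p (57.3 normalized CPM) over miR-193a-5p (41.0) to the miR-365 3p entries (26.3 and 25.9) and miR-193b-5p (7.53), and miR-193b-3p and miR-193a-5p were not apart beyond their spread. In DLD1 MCS miR-193a-5p (104) came first, with both libraries above those of miR-193b-3p (71.0), followed by the miR-365 3p entries (33.5 and 31.8) and miR-193b-5p (8.47). In HT29 cells miR-193b-3p came first in both cultures (194 and 137 normalized CPM), with the miR-365 3p entries next (94.9 and 85.8 in 2D, 57.5 and 52.2 in MCS) and overlapping it, and the other members lay at 5.11 normalized CPM or lower in every library. Summed over both entries, the miR-365 3p arm had means of 52.2 in DLD1 2D, 65.3 in DLD1 MCS, 181 in HT29 2D and 110 in HT29 MCS. This sum overlapped miR-193b-3p in every group, and in DLD1 2D both its libraries lay above those of miR-193a-5p.

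Shares within a library do not depend on the scaling between libraries. The share of miR-193b among the counts of all 4 miR-193 arms, chosen after its values were known, was 67.3% (95% Wilson interval 65.4 to 69.2) and 51.3% (49.3 to 53.3) in DLD1 2D, and 46.9% (45.3 to 48.5) and 38.6% (36.7 to 40.5) in DLD1 MCS. Both MCS libraries lay below both 2D libraries, with means of 59.3% ± 11.3 and 42.7% ± 5.84 (SD, n = 2). The rest of these DLD1 counts is nearly all miR-193a-5p, so the share is not separate from the rise of miR-193a-5p. MiR-193b-3p itself was not lower on average in DLD1 MCS (57.3 normalized CPM in 2D and 71.0 in MCS). The difference of the means, -16.6 percentage points, was -8.57 without replicate 1 of 2D and -24.6 without replicate 2 of 2D. In HT29 cells the share was 99.4% and 99.3% in 2D and 99.0% and 97.4% in MCS, again lower in MCS. The difference of the means, -1.19 percentage points, was -1.99 when replicate 1 of MCS was left out and -0.38 when replicate 2 of MCS was. With 2 libraries against 2, no 2-sided exact permutation test can give a p under 0.33, and the intervals, here and below, cover counting error only.

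The 3p arm took 91.7% and 81.6% of the miR-193b counts in DLD1 2D and 89.3% and 89.4% in MCS, so that the cultures overlapped. In HT29 cells it took 98.3% in both 2D libraries and 97.9% and 97.2% in MCS, the MCS libraries lying below. The difference of the means, -0.722 percentage points, was -0.413 without replicate 2 of MCS. On the log2 scale, the 3p to 5p ratio of miR-193b in HT29 changed by -0.50 from 2D to MCS. The median absolute change was 0.36 over 112 hairpins with at least 10 counts in each arm. How often arm shares of other hairpins separate the cultures was not counted. The miR-193a hairpin had the opposite arm in front. The 3p arm took 0% of the miR-193a counts in replicate 1 of DLD1 2D (95% Wilson interval 0 to 0.514) and 0.945% to 1.26% in the other DLD1 libraries. In HT29 cells it was 0 of 9, 8 of 33 (24.2%), 1 of 17 (5.88%) and 25 of 55 counts (45.5%, interval 33.0 to 58.5) in 2D replicates 1 and 2 and MCS replicates 1 and 2, and the low counts leave its share there open over a wide range.

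**Figure D4:**
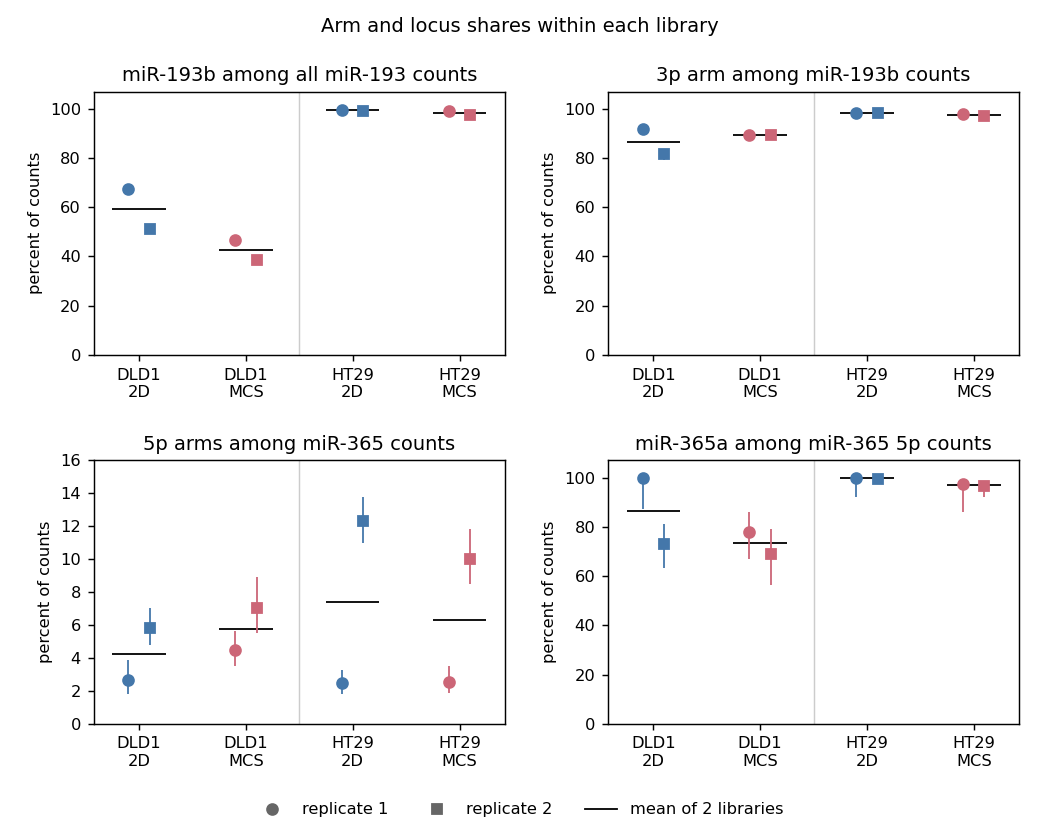
Shares of counts (y axes, percent, the panel of 5p arms on its own scale) by cell line and culture in each of the 8 libraries, with blue for 2D, red for MCS, circles for replicate 1, squares for replicate 2, vertical lines for 95% Wilson intervals (hidden by the point where short) and black lines for the mean of 2 libraries. The share of miR-193b, whose remainder in DLD1 is nearly all miR-193a-5p, falls from 67.3% and 51.3% to 46.9% and 38.6% in DLD1 MCS. The 5p share of miR-365 in HT29 separates the replicates (2.46% and 2.55% against 12.3% and 10.0%) and not the cultures.

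The other arms of the miR-365 hairpins differ in sequence, as shown above, and are the entries that tell the hairpins apart. MiR-365a-5p, from the chromosome 16 cluster, was counted 26 and 68 times in DLD1 2D and 53 and 42 times in DLD1 MCS, and miR-365b-5p, from the chromosome 17 cluster, 0 and 25 times and 15 and 19 times. MiR-365a-5p thus held 100% of the 5p counts in replicate 1 of DLD1 2D (26 counts, 95% Wilson interval 87.1 to 100) and 68.9% to 77.9% in the other DLD1 libraries. In HT29 cells miR-365a-5p was counted 44 and 264 times in 2D and 36 and 120 times in MCS, against 0, 1, 1 and 4 counts of miR-365b-5p. Its share of the 5p counts there was 96.8% to 100% in all 4 libraries, above 3 of the 4 DLD1 libraries.

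On the normalized scale miR-365a-5p had 1.48 and 2.29 CPM in DLD1 2D against 2.83 and 2.75 in MCS, and 8.03 and 6.07 CPM in HT29 2D against 4.52 and 4.49 in MCS. The cultures did not overlap in either line, with opposite directions, and they did not overlap for 70.8% of the miRNAs tested in DLD1 and 28.6% of those tested in HT29 either. On library totals alone they overlapped in both lines, at 1.64 and 2.67 against 2.93 and 2.05 CPM in DLD1 and 4.19 and 10.1 against 3.35 and 6.98 CPM in HT29. None of the 4 other mature miRNAs of these loci reached the level for a test, since miR-4725-3p had 5 counts in replicate 1 of DLD1 2D and 0 elsewhere, and miR-4725-5p had 1 count in replicate 2 of HT29 2D.

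The 5p arms of both hairpins together, a share chosen after its values were known, took 2.69% and 5.81% of the miR-365 counts in DLD1 2D and 4.47% and 7.04% in MCS. In HT29 they took 2.46% (95% Wilson interval 1.84 to 3.29) and 12.3% (11.0 to 13.8) in 2D and 2.55% (1.85 to 3.49) and 10.0% (8.47 to 11.8) in MCS. In both cultures of HT29, replicate 2 lay above replicate 1 beyond counting error, and the cultures overlapped. On the log2 scale, the 3p to 5p ratio of miR-365 differed between HT29 replicates by 2.28 on average, where the median over 112 hairpins with at least 10 counts in each arm was 1.00 and 15 had a larger gap. For miR-193b the same gap was 0.20 in HT29, with 108 of the 112 hairpins above it. The 112 hairpins include miR-193b and miR-365a themselves, so they are not a separate background.

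MiR-193b-3p and the miR-365 3p arm lie in 1 cluster on chromosome 16, but their ratio was not constant across libraries. The ratio of miR-193b-3p to the summed miR-365 3p entries was 1.49 and 0.678 in DLD1 2D and 1.08 and 1.11 in MCS. HT29 cells had ratios of 0.908 and 2.31 in 2D, and of 1.13 and 1.77 in MCS. The cultures overlapped in both lines, and the summed 3p counts also hold what MIR365B on chromosome 17 gives.

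By the root mean square difference of log2 levels, centred in each line, the miRNAs nearest to miR-193a-5p over the 4 DLD1 libraries were let-7f-2-3p (0.0469), miR-29c-3p (0.0524) and miR-200a-3p (0.0916), beside a median of 0.603 over 345 miRNAs. Their log2 fold changes in DLD1 were 1.38, 1.34 and 1.28. Over all 8 libraries, miR-197-3p (0.330), miR-769-5p (0.347) and miR-651-5p (0.394) were nearest to miR-193b-3p, with a median of 0.773 over 249 miRNAs. For miR-365a-3p they were miR-877-5p (0.365), let-7e-5p (0.381) and let-7f-5p (0.382), with a median of 0.997, and for miR-365b-3p let-7f-5p (0.344), miR-877-5p (0.345) and miR-151a-3p (0.359), with a median of 0.960. The points of each of these profiles share their library and its scaling factor.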

How the data were processed

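Small RNA libraries of DLD1 and HT29 cells in 2D and MCS (2 biological replicates each) were grouped by the submitters' labels. The authors trimmed adapters and random bases with Cutadapt, excluded reads under 15 nucleotides or a quality of 25, mapped the others with Bowtie2 to GRCh37 and to miRBase release 21, and deposited raw counts of reads on each mature miRNA, neither normalized nor pooled. The submitters' processing notes name CASAVA 1.8.3, cutadapt 1.11, Bowtie2 2.1.0, edgeR 3.4.2 and hg19. The assignment of reads with several matching miRNAs is not given in the sources used here, so counts of near-identical arms may hold reads of each other. The series table was compared with the single-library tables over 14360 values, of which 0 differed. The HT29 tables list 15 entries naming no miRNA (2590 counts, 0.00988% of replicate 2 of 2D, 0 in the others), which were left out.

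The quasi-likelihood test of edgeR 4.0.16 (legacy option off, with limma 3.58.1, R 4.3.3) was run without a replicate term. Upper quartile factors used every miRNA counted at least 1 time in the line, and miRNAs whose mean reached 10 CPM (library totals) were tested. P-values were adjusted by Benjamini-Hochberg over all tested miRNAs. The SE of a log2 fold change is its size divided by the square root of its F value. With 10495634 to 26211524 counts per library, precision rests on the spread between the 2 replicates, which edgeR shares across the tested miRNAs. In DLD1 the SE was 0.29 for miR-193a-5p and 0.28 for miR-193b-3p, although the replicates of miR-193b-3p lay much farther apart. An SE or p-value therefore does not measure the spread of 1 miRNA alone. Shares carry 95% Wilson intervals, and a count of 0 allows up to 3 counts. The script was tested on simulated data with 4-fold changes. Of the changed miRNAs that were tested, 51 of 52 were called in DLD1, 7 of 38 in HT29 and 7 of 36 for the difference between the lines. Unchanged miRNAs called numbered 0, 0 and 2. In HT29 and for the difference, a result that did not pass therefore does not show an absence of change. Smaller changes were not simulated, and the 95% intervals of the DLD1 members tested but not called reached log2 fold changes of 0.90 to 0.99. In DLD1, too, a result that did not pass does not show an absence of change.

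Alternatives were TMM, RLE and library totals, DESeq2 1.42.0, edgeR's exact test, 2 other filters on low counts, other thresholds, summed miR-365 3p entries, a replicate block, a single fit of all 8 libraries, and leaving out each library. The miRNAs named are the members, the other mature miRNAs of the same loci (miR-365a-5p, miR-365b-5p, miR-4725-5p, miR-4725-3p) and, for each tested member, the 3 nearest by the root mean square difference of log2 normalized CPM (pseudocount 0.5), with markers of cell types as a check. Members, lists and tests were chosen with earlier results of these data known. Hairpin positions came from GENCODE release 44 lifted to GRCh37, and sequences from RefSeq, which were the same as those read from GRCh37. Other steps used Python 3.11.15 (numpy 2.4.6, pandas 2.3.3, scipy 1.17.1, matplotlib 3.10.9).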

Additional observations from a re-analysis of the deposited data

Results flagged for a closer look

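MiR-365a-5p, the 5p arm of the chromosome 16 hairpin, lay above 2D in each MCS library of DLD1 cells (2.83 and 2.75 against 1.48 and 2.29 normalized CPM) and below 2D in each MCS library of HT29 cells (4.52 and 4.49 against 8.03 and 6.07 normalized CPM), which drew attention to it. The cultures did not overlap for 70.8% of the miRNAs tested in DLD1 and 28.6% of those tested in HT29. Its level was too low for the planned test. Without the filter on low values, the HT29 minus DLD1 difference of the log2 fold changes was -1.20 (SE 0.76, adjusted p = 1.00 in edgeR's quasi-likelihood test), so that the opposite directions were not shown to differ. The values rest on 26 to 68 counts per library in DLD1 and 36 to 264 in HT29 cells, and on library totals alone the cultures overlapped in both lines. No group had enough libraries for a check of single libraries that stand apart.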

How the results depend on the processing

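In DLD1, 2 members were called without replicate 1 of 2D, 1 without any other library, and 0 with all 8 libraries in 1 fit, where the fit itself called 30 miRNAs instead of 144. DLD1 calls numbered 92 to 129 when each library was left out. Signs turned against the reported ones for DLD1 miR-365a-3p on library totals (-0.048), for miR-193b-3p without replicate 2 of DLD1 2D (-0.28) or replicate 1 of MCS (-0.11), for miR-365a-3p and miR-365b-3p without replicate 1 of DLD1 MCS (-0.23 and -0.078), and, without replicate 1 of HT29 2D, for miR-193b-3p (0.45), miR-365a-3p (1.38), miR-365b-3p (1.27) and their differences between the lines (0.13, 1.12 and 0.91), with miR-193b-3p at 0.03 without replicate 2 of HT29 MCS. Leaving out each library gave ranges of 1.16 to 1.30 for miR-193a-5p, -0.28 to 0.93 for miR-193b-3p, -0.23 to 0.48 for miR-365a-3p and -0.08 to 0.54 for miR-365b-3p in DLD1, -1.43 to 0.45, -2.19 to 1.38 and -2.11 to 1.27 for the last 3 in HT29, and -1.69 to 0.13, -2.39 to 1.12 and -2.40 to 0.91 for their differences. The cause of these changes was not tested. All other alternatives kept the direction and the side of the threshold of the fold changes and counts of members. Of the shares, which have no test, the MCS minus 2D difference kept its sign without each library for miR-193b among miR-193 (-24.6 to -8.57 percentage points in DLD1, -1.99 to -0.381 in HT29), the 3p arm of miR-193b in HT29 (-1.03 to -0.413), miR-365a among the 5p arms in HT29 (-3.04 to -2.51) and among the 3p entries in DLD1 (-2.57 to -1.03). Its sign turned in at least 1 case for the 3p arm of miR-193a (-0.285 to 0.976 in DLD1, -6.24 to 33.3 in HT29), the 3p arm of miR-193b in DLD1 (-2.31 to 7.79), the 5p arms of miR-365 (-0.057 to 3.07 in DLD1, -6.03 to 3.82 in HT29), miR-365a among the 5p arms in DLD1 (-26.6 to 0.279) and among the 3p entries in HT29 (-0.839 to 1.39), all of which overlapped between the cultures.

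The labels give the replicates of the 2 cultures a shared number and do not say whether they were handled together. The differences between replicates 1 and 2 of the cultures correlated across miRNAs by 0.338 in DLD1 (346 miRNAs) and 0.788 in HT29 (301 miRNAs). The main test, run without a replicate term, did not take up this shared pattern. With the replicate block, 139 miRNAs were called in DLD1, 47 in HT29 and 40 for the difference between the lines, among them 1, 0 and 0 members, the DLD1 member again miR-193a-5p (log2 fold change 1.35, adjusted p = 0.00248 in edgeR's quasi-likelihood test). The HT29 minus DLD1 differences were then -0.92 for miR-193b-3p, -0.71 for miR-365a-3p and -0.83 for miR-365b-3p (adjusted p = 0.0988, 0.233 and 0.152 in the same test). The scaling moved the split of DLD1 calls into higher and lower, which was 104 and 40 with the upper quartile, 76 and 63 with TMM, 91 and 51 with RLE and 61 and 89 with library totals, as the median log2 fold change of all miRNAs moved by -0.20, -0.12 and -0.37. MiR-193a-5p was called as higher under each of these. Without a filter, edgeR called 3 HT29 miRNAs and 3 for the difference between the lines, none a member.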
